A study of Rattus norvegicus with 4 samples.

Results

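The heat shock proteins and co-chaperones described here are 9 rat genes, namely Hspa1a, Dnajb1, Dnaja1, Hspa8, Hspa4, Hspa5, Hspb1, Hspd1 and Hspe1. The genes were chosen with earlier results of these data known, and their probe sets were then taken by gene symbol alone, as all probe sets whose annotation names a member, alone or beside another gene. This gave 25 probe sets, out of 8740 probe sets that are not controls and 4736 genes with a probe set of their own on the array. Left ventricular total RNA had been hybridised to 4 Affymetrix oligonucleotide arrays, 1 per group. The groups were terminal heart failure, losartan-treated dTGR, dTGR and a Sprague Dawley (SD) control. The label dTGR goes with a description, attached to all 4 samples alike, of rats that overexpress human renin and human angiotensinogen, become hypertensive with enlarged hearts and proteinuria, and die after 7 weeks. Losartan blocks the angiotensin II type 1 receptor, through which the transgene products act. The terminal heart failure sample has no genotype of its own in its label. Losartan dose, ages, the promoters of the transgenes, the number of animals behind an array and any pooling were not stated in the labels. With 1 array per group there was no replicate error and no test, so every difference below is the difference between 2 arrays.

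Hsp70-class chaperones bind exposed hydrophobic stretches of unfolded proteins and release them in a cycle driven by ATP. J-domain proteins such as Dnajb1 and Dnaja1 deliver substrates and stimulate ATP hydrolysis, and Hsp110-class relatives such as Hspa4 exchange the nucleotide. Hspa1a is the strongly stress-inducible cytosolic member, Hspa8 its constitutive counterpart and Hspa5 (BiP) the member in the endoplasmic reticulum. Hspd1 and its lid Hspe1 form the folding chamber of the mitochondrial matrix. Hspb1 is a small heat shock protein that holds unfolding proteins without ATP and is abundant in heart muscle. Heat shock factor 1 drives many of these genes by binding inverted repeats of a short unit in their promoters, while Hspa5 is driven from an endoplasmic reticulum stress element.

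The promoter letters show which of the 9 genes carry such repeats in 1 annotated RefSeq window each. RefSeq promoter windows of the rat GRCr8 assembly, from 250 bases before to 50 bases after a start, were found for 9 of 9 members. For 7 of them that start is the 5′ end of the gene span in RefSeq's gene table, while for Hspd1 and Hspa4 it lies inside the span, by 295 and 2159 bases. A pair of inverted units, GAANNTTC or TTCNNGAA searched on both strands (each reads the same on either strand), was present in 6 of 9 windows, against 15.9% of 33469 rat windows. A run of 3 alternating units, which overlaps such pairs, was present in 4 of 9 windows, against 0.798% of all windows. The endoplasmic reticulum stress element was present in 1 of 9, that of Hspa5, against 0.0657% of all windows. CCAAT was present in 3 of 9 windows against 37.5%, and TATAAA in 0 of 9 against 14.2%. The stretches around the matches are shown 5′ to 3′ because inverted units are a feature that 6 of these genes have in common besides their function, with the inverted units, or in Hspa5 the stress element, in capitals.
Hspa8, chr8:50080271-50080501, plus strand: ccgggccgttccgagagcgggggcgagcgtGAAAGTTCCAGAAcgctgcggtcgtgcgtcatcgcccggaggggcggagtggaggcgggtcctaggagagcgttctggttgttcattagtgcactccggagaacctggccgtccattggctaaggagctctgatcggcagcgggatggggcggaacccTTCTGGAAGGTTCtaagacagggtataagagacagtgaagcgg
Dnajb1, chr19:41431092-41431182, minus strand: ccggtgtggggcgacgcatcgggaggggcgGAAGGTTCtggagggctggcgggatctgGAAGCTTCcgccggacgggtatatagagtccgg
Dnaja1, chr5:60638193-60638453, plus strand: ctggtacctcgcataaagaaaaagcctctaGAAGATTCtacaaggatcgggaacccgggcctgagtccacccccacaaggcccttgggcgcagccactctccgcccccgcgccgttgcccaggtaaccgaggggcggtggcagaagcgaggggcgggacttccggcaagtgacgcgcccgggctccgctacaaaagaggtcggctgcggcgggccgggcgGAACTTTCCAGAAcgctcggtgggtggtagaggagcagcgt
Hspb1, chr12:26432373-26432460, minus strand: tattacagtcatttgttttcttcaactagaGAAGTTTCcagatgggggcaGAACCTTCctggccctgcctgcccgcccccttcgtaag
Hspd1, chr9:64084232-64084287, minus strand: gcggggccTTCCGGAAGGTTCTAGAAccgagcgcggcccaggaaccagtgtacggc
Hspe1, chr9:64084232-64084309, plus strand: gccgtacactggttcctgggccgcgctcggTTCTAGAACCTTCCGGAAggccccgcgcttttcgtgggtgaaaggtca
Hspa5, chr3:38452943-38453021, plus strand: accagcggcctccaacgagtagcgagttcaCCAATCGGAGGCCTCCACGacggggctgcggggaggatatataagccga
Positions counted from each window's start place the matches at -213 to -201 and -55 to -43 in Hspa8, at -11 to -4 and 18 to 25 in Dnajb1, and at -181 to -174 and 10 to 22 in Dnaja1. They lie at -129 to -122 and -109 to -102 in Hspb1, and the Hspa5 element lies at -43 to -25. Hspd1 and Hspe1 are divergent neighbours on chromosome 9 whose windows overlap by 211 bases, and the same run of units, at chr9:64084262-64084279, is read from the minus strand for Hspd1 (-242 to -225, counted from 64084037 and so inside the gene span) and from the plus strand for Hspe1 (-65 to -48). The windows of Hspa1a and Hspa4 hold no match, which says only that these letters are not in those 300 bases. The stretches at the 5′ ends of the Hspa4 and Hspd1 gene spans were not searched as such. Nor was any stretch further inside the Hspa1a span, which is 4045 bases long where that of its neighbour Hspa1b is 2456.

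**Figure D1:**
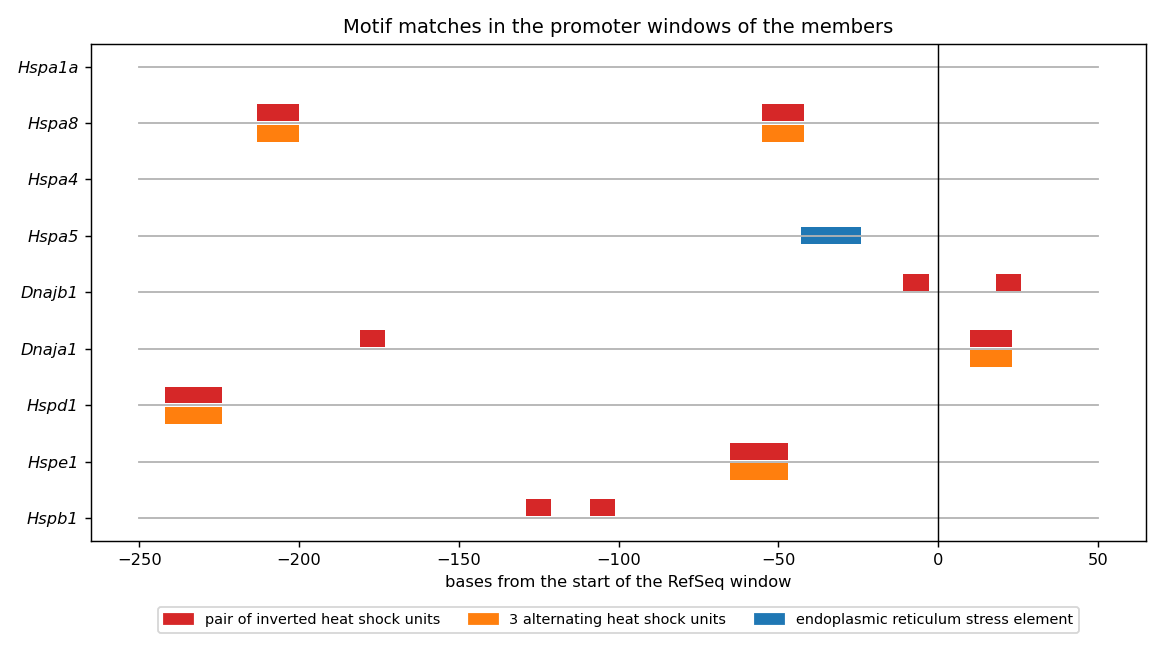
Positions of the searched motifs in the promoter windows of the 9 genes, in bases from the start each window is built on, which for Hspd1 and Hspa4 lies inside the gene span. Each mark is a match, and 7 of 9 windows hold either a pair of inverted heat shock units or the endoplasmic reticulum stress element.

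The 4 arrays differed in ways that move with the groups. The terminal and losartan arrays came from the same chip lot, the dTGR and SD arrays from another. A separate run day set the terminal array apart, and a separate fluidics protocol the dTGR array. The ratio of 3′ to 5′ Gapdh signal, a sign of RNA integrity, was 1.28 in terminal heart failure, 2.17 in losartan-treated dTGR, 1.73 in dTGR and 1.34 in the SD control. Ventricular cardiomyocyte markers, 11 of 12 on the array and 0 of them under the floor on all arrays, summed to 106024 in terminal heart failure, 148565 in losartan-treated dTGR, 215523 in dTGR and 114375 in the SD control. Macrophage markers (9 of 12 on the array, with Csf1r under the floor on every array) summed to 5237, 3594, 3687 and 3077 in the same order of arrays. Neutrophil markers (2 of 6) summed to 168, 24.1, 50.8 and 37.2, and fibroblast markers (8 of 8) to 15056, 15549, 13640 and 15648. Of the neutrophil markers, S100a8 was under the floor in the SD control (10.1), S100a9 in dTGR (8.03) and both in losartan-treated dTGR. Such sums follow their brightest gene: among 8 tested macrophage markers, terminal heart failure exceeded the SD control at least 2-fold for 4, and Cd74 was lower (log2 difference -1.20). Among fibroblast markers 0 of 8 were higher and 3 were lower, namely Col3a1 (-2.01), Lum (-1.67) and Col1a1 (-1.10), while Dcn alone gave 11486 of the terminal sum. The part of these in the results below was not tested, and chip lot, run day and fluidics cannot be told apart from the groups they differ between. In whole ventricle, more cells of a type and more RNA per cell cannot be told apart either.

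Most probe sets of these genes, though not most of the genes on every probe set, were highest in the terminal heart. Intensities are linear and were set to a common trimmed mean, and values under the pooled 40th percentile, 26.0, were treated as a floor. Of the 25 probe sets, 19 were above the floor on all 4 arrays, 5 on 1 to 3 arrays and 1, a probe set of Hspa5, on 0. Of the 24 above the floor on at least 1 array, 16 were highest in terminal heart failure, 5 in losartan-treated dTGR, 1 in dTGR and 2 in the SD control. Over all 6533 probe sets above the floor on at least 1 array the shares were 21.6%, 22.3%, 34.1% and 21.9%. The Hspa1a probe sets Z27118cds_s_at and AA848563_s_at passed the floor on the terminal array alone. Their place among the 16 was therefore fixed by that filter. By gene, Hspa1a, Hspa8, Dnajb1 and Dnaja1 were highest in terminal heart failure on every probe set. Hspa4, Hspa5 and Hspb1 were so on some of theirs, and Hspd1 and Hspe1 on none. The SD control was the lowest array for 10 of the 24. Levels of different probe sets are not comparable with each other, so each is followed across arrays only.

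**Figure D2:**
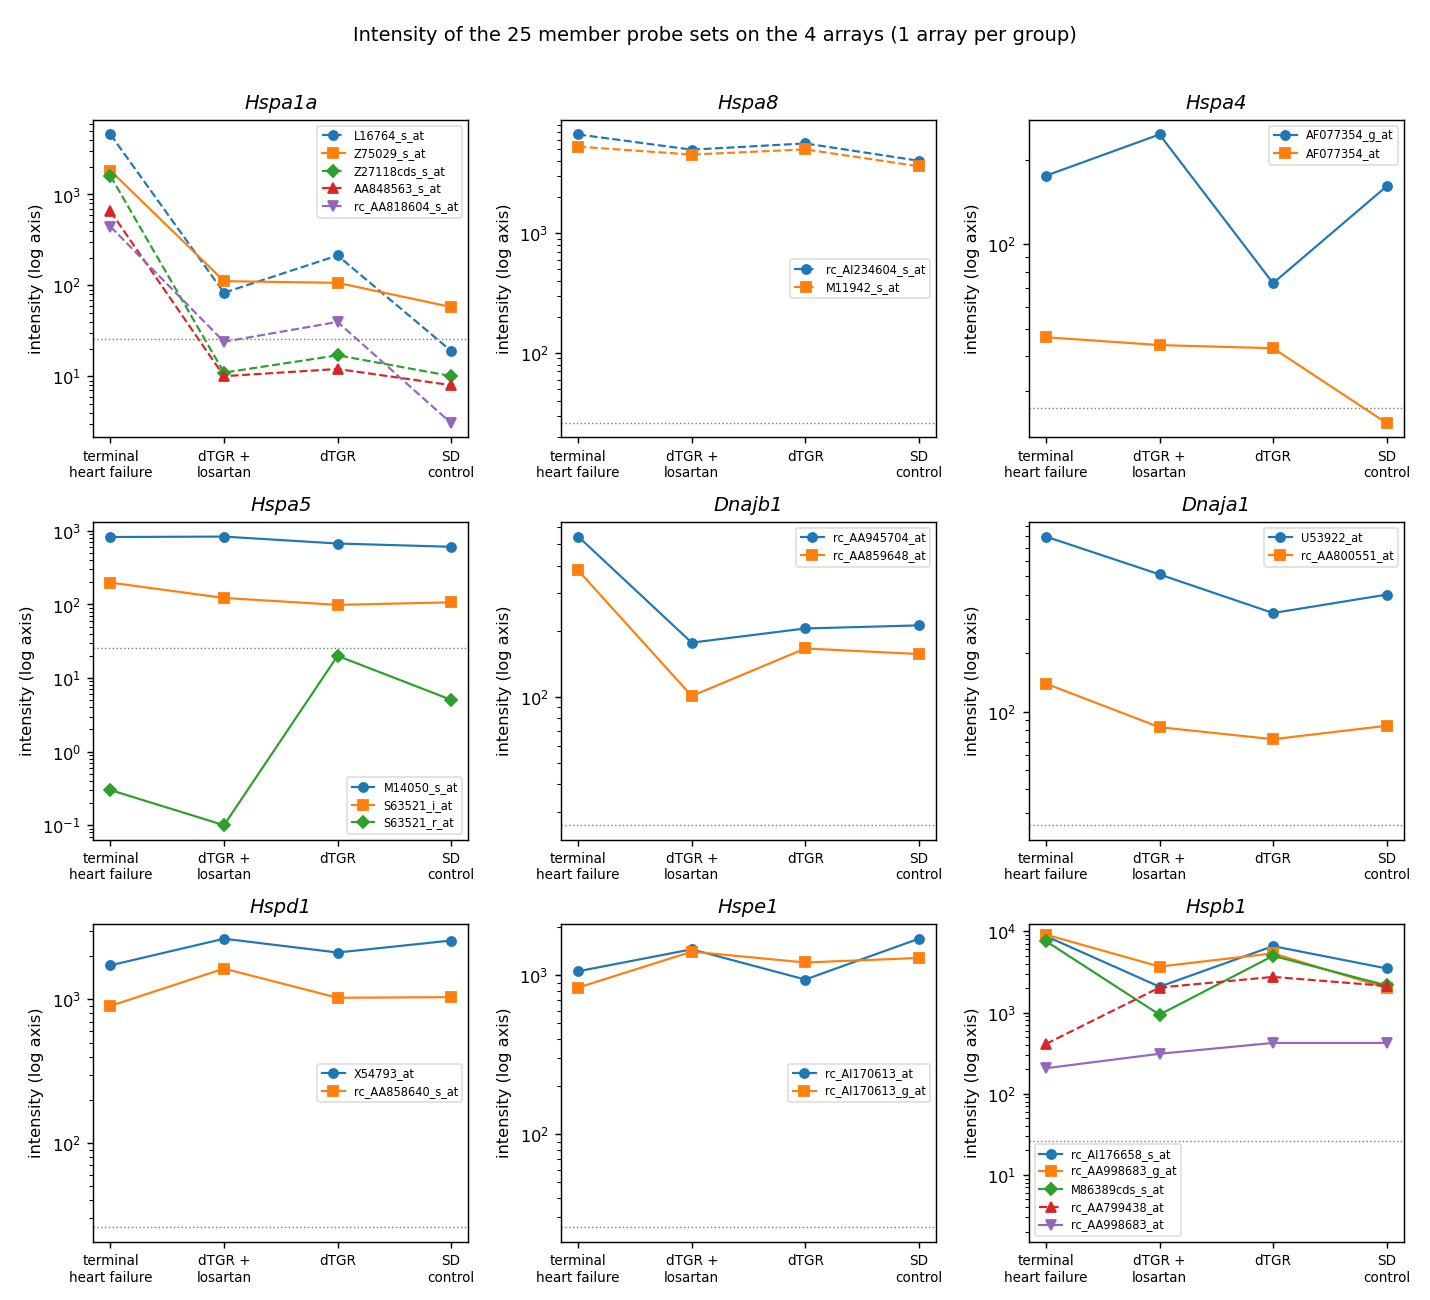
Intensity (log axis) of each probe set of the 9 genes on the 4 arrays, with the floor of 26.0 as a dotted line and dashed curves for probe sets annotated to several genes. The 5 Hspa1a probe sets lie between 443 and 4567 in terminal heart failure and at 213.5 or below on the other 3 arrays.

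Hspa1a (chr20:3859756-3863800) stood highest above the other arrays in terminal heart failure among the 9 genes. The probe set annotated to Hspa1a alone, Z75029_s_at, had an intensity of 1829.6 in terminal heart failure, 111 in losartan-treated dTGR, 107 in dTGR and 57.9 in the SD control. That is 31.6-fold higher in terminal heart failure than in the SD control, 17.1-fold higher than in dTGR and 16.4-fold higher than in losartan-treated dTGR. Among probe sets above the floor on both arrays of a pair, it ranked 3 of 4604, 8 of 4542 and 12 of 4563 from the top in these comparisons.

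The other 4 Hspa1a probe sets are annotated to both Hspa1a and its near-identical neighbour Hspa1b (chr20:3875411-3877866), so their signal cannot be assigned to either gene. L16764_s_at had 4567 in terminal heart failure, 83.1 in losartan-treated dTGR, 213.5 in dTGR and 19.1, under the floor, in the SD control. Z27118cds_s_at had 1598 and AA848563_s_at 650.5 in terminal heart failure, and both were under the floor on the other 3 arrays. rc_AA818604_s_at had 443 in terminal heart failure and 39.7 in dTGR and was under the floor in losartan-treated dTGR and the SD control. All 5 probe sets thus had their highest value in terminal heart failure. Against the SD control the terminal signal was at least 176-fold higher for L16764_s_at, at least 61.5-fold for Z27118cds_s_at, at least 25.02-fold for AA848563_s_at and at least 17.0-fold for rc_AA818604_s_at. These bounds are set by the floor: with it at the 60th percentile the log2 bounds of L16764_s_at, Z27118cds_s_at, AA848563_s_at and rc_AA818604_s_at were 6.11, 4.59, 3.30 and 2.74, in place of 7.46, 5.94, 4.64 and 4.09.

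On the other 3 arrays the Hspa1a probe sets did not give a common order. L16764_s_at was at least 8.21-fold higher in dTGR than in the SD control (a log2 bound of 3.04, and 1.69 to 3.48 over the processing settings) and 2.57-fold lower in losartan-treated dTGR than in dTGR. Z75029_s_at was 1.84-fold higher in dTGR than in the SD control, and losartan-treated dTGR and dTGR differed by 0.06 on the log2 scale. For scale, probe sets of the same gene differed from each other by an SD of 0.51 to 0.60 log2 units in the 6 comparisons, over 739 to 791 genes with several probe sets. The losartan and dTGR values of Z75029_s_at lay within that spread, and those of L16764_s_at (-1.36) lay outside it. The spread is among probe sets around their gene's mean on the same arrays, and does not measure variation between animals or repeated arrays.

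The J-domain co-chaperones were also highest in terminal heart failure, by far smaller amounts. Dnajb1 (chr19:41427453-41431141), the stress-inducible partner of Hspa1a, had 543, 178, 206 and 213 for rc_AA945704_at in terminal heart failure, losartan-treated dTGR, dTGR and the SD control. Its other probe set, rc_AA859648_at, had 380.0, 101, 167 and 158 on the same arrays. Both put the terminal array above the other 3. The terminal signal was 2.55- and 2.41-fold that of the SD control, 2.63- and 2.27-fold that of dTGR and 3.05- and 3.75-fold that of losartan-treated dTGR. Between dTGR and the SD control the probe sets differed by -0.05 and 0.08 log2 units, and between losartan-treated dTGR and dTGR by -0.22 and -0.72. The last ran from -0.72 to -0.49 over the processing settings, on both sides of the spread between probe sets (0.60 in that comparison).

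Dnaja1 (chr5:60638404-60649315), a J-domain protein that works with Hspa8 on newly made and imported proteins, had 797, 509, 322 and 400.4 for U53922_at in terminal heart failure, losartan-treated dTGR, dTGR and the SD control. Its probe set rc_AA800551_at had 139, 83.1, 72.1 and 84.5. Terminal heart failure exceeded the SD control by 1.99- and 1.65-fold, just under the 2-fold threshold (0.97 to 1.09 log2 units for U53922_at over the processing settings, on both sides of it). It exceeded dTGR by 2.48- and 1.93-fold, the second between 0.82 and 1.24 log2 units over the settings, also on both sides of 2-fold. Against losartan-treated dTGR the excess was 1.57- and 1.68-fold. Among the other 3 arrays, losartan-treated dTGR minus dTGR was 0.66 log2 units for U53922_at and 0.21 for rc_AA800551_at. The spread between probe sets was 0.60 in that comparison. U53922_at ran from 0.57 to 0.90 over the processing settings, on both sides of it, and rc_AA800551_at lay within it.

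The constitutive cytosolic Hspa8 (chr8:50080514-50084376) differed by less than 2-fold in all 6 comparisons. Both of its probe sets are annotated to Hspa8 and Haus8l2. rc_AI234604_s_at had 6659 in terminal heart failure, 4974 in losartan-treated dTGR, 5605 in dTGR and 4017 in the SD control. M11942_s_at had 5268, 4526, 4999 and 3614 on the same arrays. The order of arrays was the same for both, from terminal heart failure at the top through dTGR and losartan-treated dTGR to the SD control, and no neighbours in that order differed by more than 0.32 log2 units. The top and bottom arrays differed by 0.73 and 0.54 log2 units. Under other scalings the middle of that order turned, with losartan-treated dTGR minus dTGR between -0.17 and 0.06 for rc_AI234604_s_at and between -0.14 and 0.09 for M11942_s_at.

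Hspa4 (chr10:37908866-37951994), the Hsp110-class nucleotide exchange factor, gave different pictures with its probe sets. AF077354_g_at had 176 in terminal heart failure, 247 in losartan-treated dTGR, 72.7 in dTGR and 161 in the SD control, so the dTGR array stood alone at the low end. AF077354_at had 46.6, 43.7, 42.6 and 23.0 on the same arrays, the last under the floor. On AF077354_g_at, losartan-treated dTGR was 3.40-fold higher than dTGR, terminal heart failure was 2.42-fold higher than dTGR, and dTGR was 2.22-fold lower than the SD control. AF077354_at differed by 0.04 log2 units between losartan-treated dTGR and dTGR and by 0.13 between terminal heart failure and dTGR. The low dTGR value therefore rests on 1 of 2 probe sets named for the same transcript, on the array with its own fluidics protocol.

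Hspa5 (chr3:38453016-38457475), the endoplasmic reticulum chaperone that senses unfolded proteins, had 826 in terminal heart failure, 837 in losartan-treated dTGR, 674 in dTGR and 608 in the SD control for M14050_s_at. S63521_i_at had 198, 123, 98.8 and 107 on the same arrays, and S63521_r_at was under the floor on all 4. Terminal heart failure and losartan-treated dTGR differed by -0.02 log2 units for M14050_s_at and by 0.69 for S63521_i_at. Against the SD control the terminal excess was 0.44 and 0.89 log2 units. Against dTGR it was 0.29 and 1.01, the second just past 2-fold and between 0.90 and 1.30 over the processing settings, on both sides of it.

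Hspb1 (chr12:26430640-26432301) split by probe set. In terminal heart failure, losartan-treated dTGR, dTGR and the SD control, rc_AI176658_s_at had 8746, 2082, 6586 and 3498. rc_AA998683_g_at had 9127, 3689.6, 5364 and 2008, and M86389cds_s_at had 7581, 943, 5004 and 2158. On these 3 bright probe sets terminal heart failure was highest and dTGR second, while the order of losartan-treated dTGR and the SD control differed among them. Terminal heart failure was 2.50-, 4.55- and 3.51-fold above the SD control and 4.20-, 2.47- and 8.04-fold above losartan-treated dTGR, and 1.33-, 1.70- and 1.52-fold above dTGR. Those against dTGR were the lowest over the processing settings, which gave 0.41 to 0.90, 0.77 to 1.26 and 0.60 to 0.97 log2 units. The range of rc_AA998683_g_at lay on both sides of 2-fold. The dTGR array was 1.88-, 2.67- and 2.32-fold above the SD control, and losartan-treated dTGR was 3.16-, 1.45- and 5.31-fold below dTGR. For M86389cds_s_at, dTGR minus SD control ran from 0.97 to 1.21 log2 units over the processing settings, on both sides of 2-fold.

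The remaining Hspb1 probe sets were lower in terminal heart failure than on each of the other arrays. rc_AA799438_at, annotated to both Hspb1 and Asb2 (a muscle ubiquitin ligase subunit), had 411 in terminal heart failure, 2033 in losartan-treated dTGR, 2749.7 in dTGR and 2127 in the SD control. It was 5.18-fold lower in terminal heart failure than in the SD control and 6.70-fold lower than in dTGR, the lowest of 4542 differences there. Its signal cannot be assigned to Hspb1 or to Asb2. rc_AA998683_at, annotated to Hspb1 alone, had 206, 311, 422 and 422 on the same arrays, and was 2.05-fold lower in terminal heart failure than in the SD control (-1.04 to -0.92 log2 units over the processing settings, on both sides of 2-fold). Its partner named for the same sequence, rc_AA998683_g_at, was 4.55-fold higher in that comparison. In losartan-treated dTGR against dTGR all 5 Hspb1 probe sets had negative differences, with -0.44 for each of these 2.

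The mitochondrial chaperonin pair was lower in terminal heart failure than in losartan-treated dTGR on every probe set. Hspd1 (chr9:64073610-64084332), the chamber subunit, had 1726, 2643, 2119 and 2568 for X54793_at in terminal heart failure, losartan-treated dTGR, dTGR and the SD control. Its probe set rc_AA858640_s_at had 901, 1638, 1027 and 1037. Hspe1 (chr9:64084327-64087415), the lid, had 1059.9, 1456, 939.9 and 1697 for rc_AI170613_at, and 837, 1408, 1203 and 1285 for rc_AI170613_g_at. Terminal heart failure was the lowest array for 3 of these 4 probe sets and losartan-treated dTGR the highest for 3 of them.

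Terminal heart failure minus losartan-treated dTGR gave log2 differences of -0.61 and -0.86 for Hspd1 and of -0.46 and -0.75 for Hspe1. Against the SD control they were -0.57 and -0.20 for Hspd1 and -0.68 and -0.62 for Hspe1, none past 2-fold. Against dTGR the Hspe1 probe sets had opposite signs, 0.17 and -0.52, and Hspd1 had -0.30 and -0.19. The sizes lie around the spread between probe sets of a gene (0.51 to 0.56 in these comparisons). Over the processing settings rc_AA858640_s_at ran from -0.28 to 0.10 against dTGR, so that its lowest array can be either of them. X54793_at ran from -0.05 to 0.04 in losartan-treated dTGR against the SD control, so its highest array can be either of those. Both genes share the divergent promoter shown above, with its run of inverted units.

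**Figure D3:**
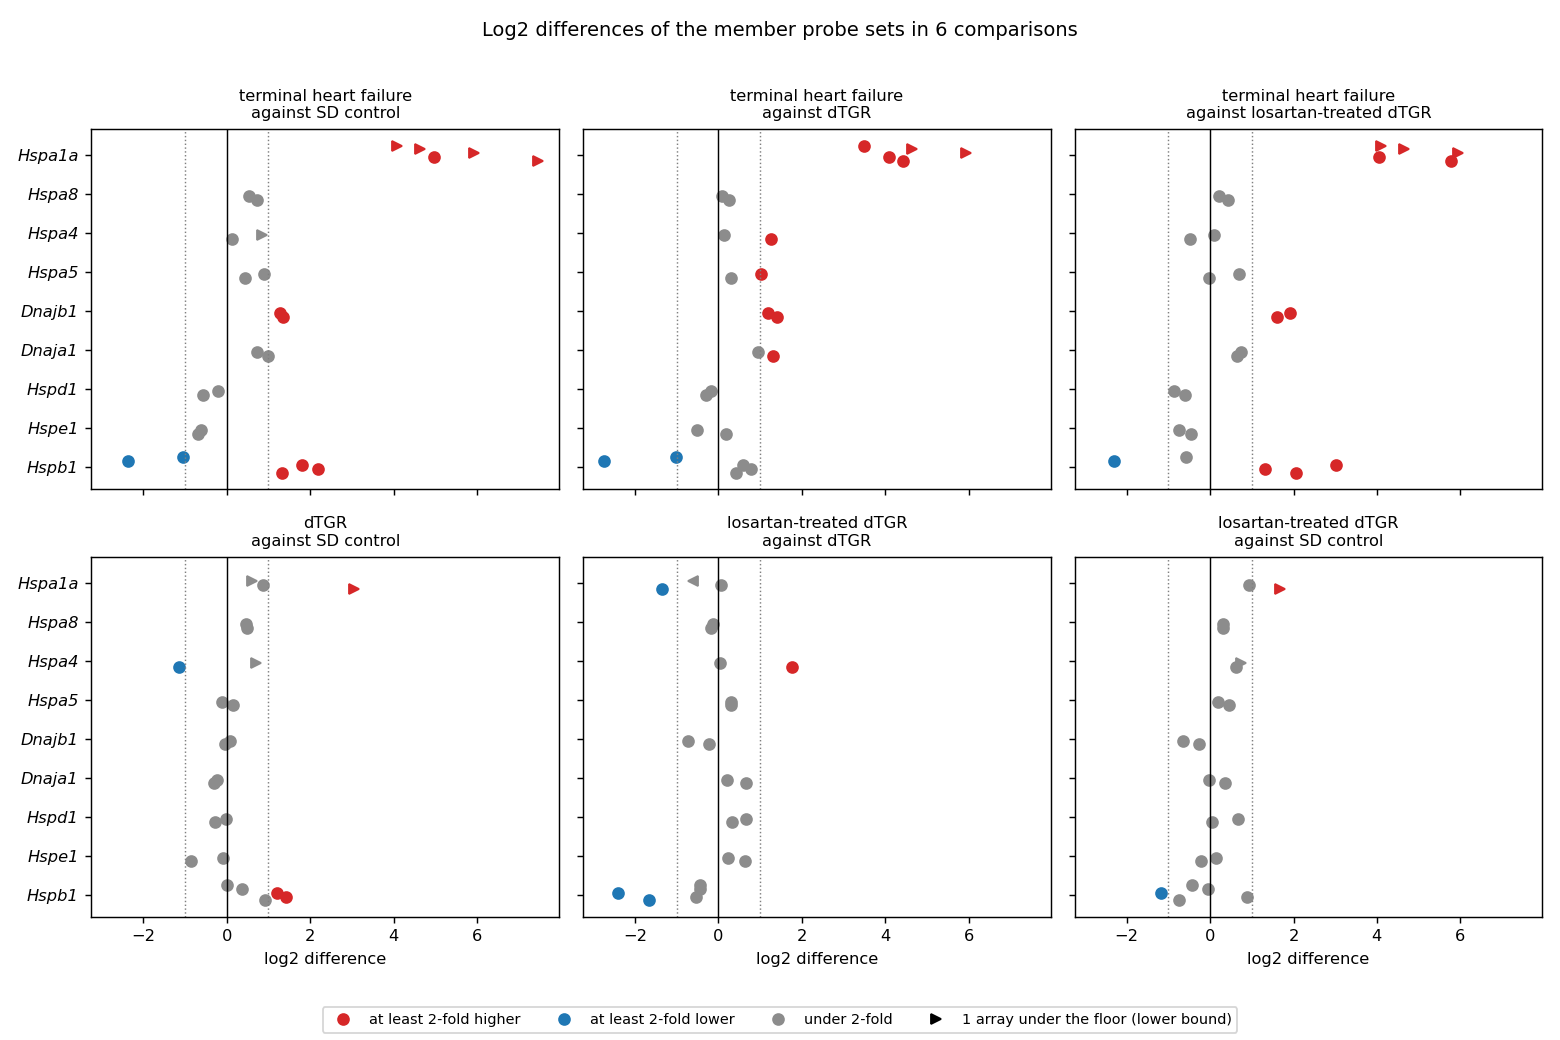
Log2 difference of each probe set of the 9 genes in the 6 comparisons, with the first-named array minus the second. Triangles are lower bounds with 1 array under the floor, the dotted lines mark 2-fold, and all probe sets of Hspa1a and Dnajb1 lie past the upper line in the 3 comparisons with terminal heart failure.

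Counted over probe sets, terminal heart failure against the SD control had 10 of 24 at least 2-fold higher, where 7.68% of 5679 probe sets were, and 2 lower, where 8.61% were. The median log2 difference was 0.87, against -0.11 over all probe sets. The 10 were the 5 of Hspa1a, the 2 of Dnajb1 and 3 of Hspb1, and both lower ones were of Hspb1. All Hspa1a probe sets but Z75029_s_at passed the floor in this comparison on the terminal array alone, so they could not come out lower. Z27118cds_s_at and AA848563_s_at did so in every comparison with terminal heart failure. By gene, 6 of 9 (Hspa1a, Dnajb1, Dnaja1, Hspa8, Hspa4 and Hspa5) were positive on every tested probe set, 2 (Hspd1 and Hspe1) were negative on every one, and Hspb1 was mixed. Probe sets of 1 gene share their target and are not replicates, and with 9 genes the counts rest mainly on Hspa1a and Hspb1, which hold 10 of the 25 probe sets.

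Terminal heart failure against dTGR had 10 of 24 higher (8.42% of all probe sets) and 2 lower (12%), with a median of 0.68 against -0.16 over all. Terminal heart failure against losartan-treated dTGR had 10 of 24 higher (9.1%) and 1 lower (7.25%), with a median of 0.67 against -0.07. The arrays of that comparison share a chip lot but differ in run day, and their Gapdh ratios were 1.28 and 2.17. Hspa1a and Dnajb1 were past 2-fold upward on all their probe sets in all 3 of these comparisons. The 3 comparisons share the terminal array, so they are not separate evidence.

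Among the other 3 arrays fewer probe sets were past 2-fold. dTGR against the SD control had 3 of 22 higher (8.72% of all probe sets), namely 1 of Hspa1a and 2 of Hspb1, and 1 lower (6.15%), that of Hspa4, with a median of 0.12 against 0.05. Losartan-treated dTGR against dTGR had 1 of 22 higher (6.02%), that of Hspa4, and 3 lower (10.8%), 1 of Hspa1a and 2 of Hspb1, with a median of -0.05 against -0.08. Losartan-treated dTGR against the SD control had 1 of 21 higher (3.15%) and 1 lower (6%), with a median of 0.20 against -0.01. These counts lie near the background of the arrays.

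The same was asked of other genes of protein folding and stress, in 7 lists with 55 of 116 genes on the array, each taken by its brightest probe set. In terminal heart failure against the SD control, 8 of 54 were at least 2-fold higher, where 6.38% of genes were, and 1 was lower, where 8.4% were. The list of heat shock factors and other stress-inducible genes had 4 of 8 higher and 0 lower, with a median of 1.27 against -0.14 over all genes. The 4 were Hmox1, the inducible heme oxygenase, and the immediate early transcription factors Atf3, Fos and Egr1, rather than heat shock factors. Hsf1, the only heat shock factor of that list that was tested, had -0.50 log2 units there. Its other probe sets had -2.11 to -0.37. Atf3 had 528 in terminal heart failure, 49.4 in losartan-treated dTGR, 168 in dTGR and 49.2 in the SD control. Fos had 1061, 133, 227 and 199.9 on the same arrays.

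The endoplasmic reticulum list had 2 of 15 higher and 0 lower, with a median of 0.20. These were Pdia3, a disulfide isomerase of glycoprotein folding, with 851, 519, 259 and 325 in terminal heart failure, losartan-treated dTGR, dTGR and the SD control, and Ppp1r15a, a stress-induced phosphatase regulator, with 567, 168, 372 and 237. The other Pdia3 probe set had the opposite sign in all 3 comparisons with terminal heart failure, with log2 differences of -0.35 against the SD control, -1.13 against dTGR and -0.05 against losartan-treated dTGR, where the brighter had 1.39, 1.71 and 0.71. The other Ppp1r15a probe set had 1.23 against the SD control. Hsp90b1, the Hsp90 of that compartment, had 742, 442, 531 and 453. The list of the HSP90 system had 1 of 9 higher, the Hsp110-class Hsph1, with 351, 222, 144 and 155, and 1 lower, the immunophilin Fkbp4, with 181, 273, 303 and 435. The other Hsph1 probe set had 0.21 log2 units against the SD control and -0.89 against dTGR, where the brighter had 1.18 and 1.28, and the other Fkbp4 probe sets had -1.44 and -1.33 against the SD control. The list's median was -0.11.

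The mitochondrial list had 0 of 5 past 2-fold and a median of -0.53. Its matrix Hsp70, Hspa9, had 613, 847, 468 and 946 in terminal heart failure, losartan-treated dTGR, dTGR and the SD control (its other tested probe set had -0.02 log2 units in terminal heart failure against the SD control), and the prohibitin Phb2 had 1033, 1868, 1196 and 1495. Other Hsp70 and J-domain genes had 0 of 10 past 2-fold and a median of -0.38, and the cytosolic chaperonin list had 1 of 3 higher, Cct6a, and a median of 0.24. Cct6a had 86.9, 94.4, 49.2 and 33.4 in the same order of arrays, so its highest array was losartan-treated dTGR. Other small heat shock proteins had 0 of 4 past 2-fold and a median of 0.01. Among these, Hspb6 had 8189, 9228, 20095 and 8570 and Cryab 10980, 13788, 19360 and 10353 in that order of arrays. Both peaked in dTGR, where the bright Hspb1 probe sets did not. The summed ventricular cardiomyocyte markers also peaked in dTGR, and Actc1 among them had 17320, 25478, 44905 and 17590.5. Pln peaked in losartan-treated dTGR instead, with 2261, 3491, 2717 and 3091. The part of the dTGR array, with its own fluidics protocol, in these peaks was not tested.

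**Figure D4:**
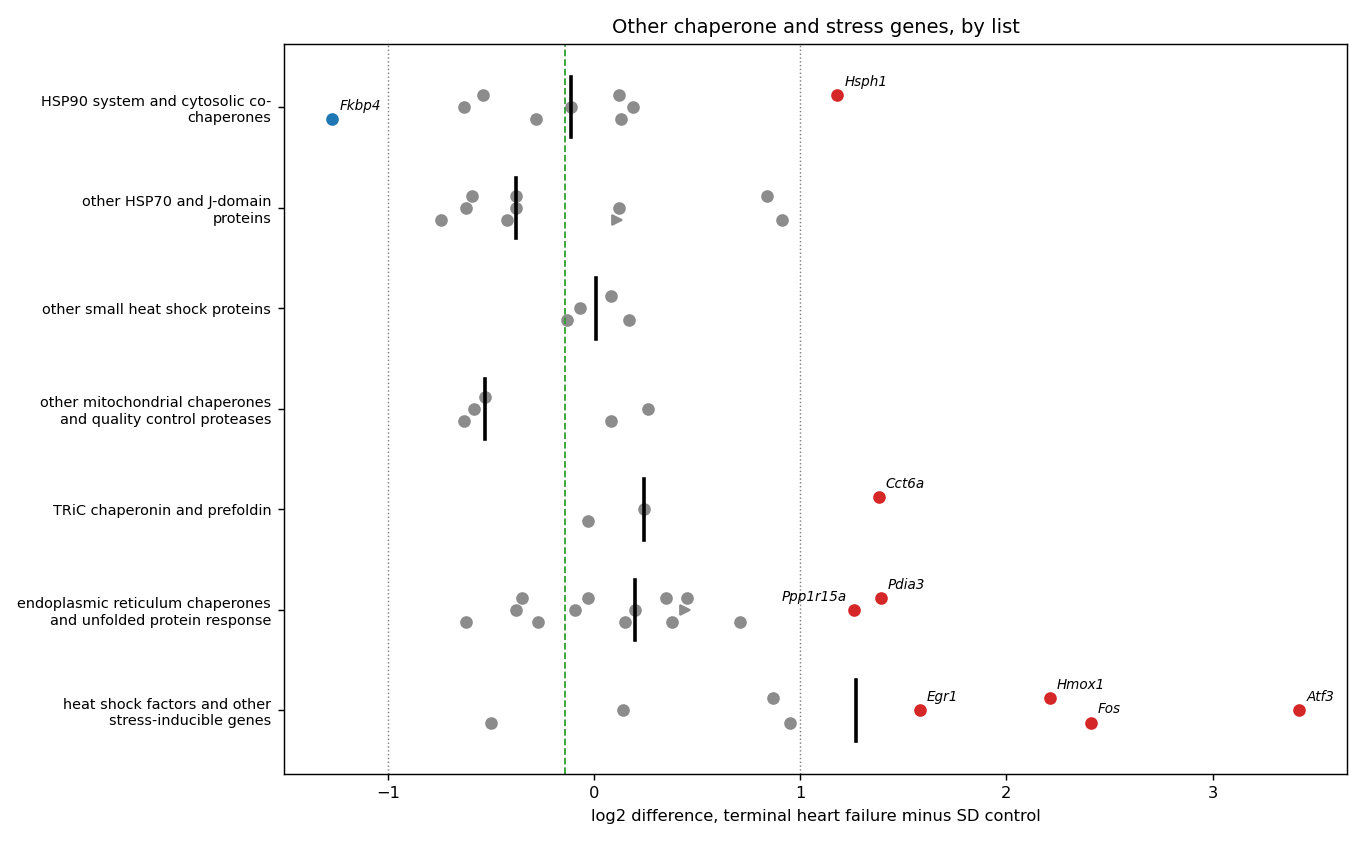
Log2 difference, terminal heart failure minus SD control, of each gene in the 7 lists, with the list median as a bar, the dotted lines at 2-fold and the dashed line at the median of all genes (-0.14). The median is 1.27 for heat shock factors and other stress-inducible genes and -0.53 for the mitochondrial list.

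In the other comparisons the 7 lists together had 5 of 54 genes higher and 1 lower for terminal heart failure against dTGR (7.69% and 11.8% of all genes), and 6 higher and 0 lower against losartan-treated dTGR (7.44% and 7.35%). dTGR against the SD control had 3 higher and 2 lower (7.69% and 5.87%), and losartan-treated dTGR against dTGR had 3 higher and 5 lower (5.9% and 9.5%). Losartan-treated dTGR against the SD control had 2 of 52 higher and 0 lower (2.24% and 4.86%). On their brightest probe sets, Atf3, Fos and Egr1 were past 2-fold upward in all 3 comparisons with terminal heart failure. Hmox1 was so in those against the SD control and losartan-treated dTGR. The other Egr1 probe sets had 0.42 to 0.79 log2 units against dTGR, all under 2-fold. They had 0.63 to 1.72 against the SD control and 0.66 to 1.65 against losartan-treated dTGR.

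The genes whose 4 values ran most like those of Hspa1a on Z75029_s_at were found by the Euclidean distance of centred log2 values over the 4 arrays, among 3798 genes with a signal over the floor on any array. They were Kctd13, Lcn2, Tgm1, Timp1 and Trh, at distances from 0.68 for Kctd13 to 1.53 for Trh. Kctd13, a ubiquitin ligase adaptor, had 2644 in terminal heart failure, 106 in losartan-treated dTGR, 125 in dTGR and 44.5 in the SD control. Lcn2, a siderophore-binding protein of neutrophils and injured tissue, had 1467, 147, 154 and 99.1. Timp1, an inhibitor of matrix proteases, had 2416, 285, 595 and 192 on those arrays. Those most like Hspd1 on X54793_at lay far closer, namely Metrnl (0.03), Cit (0.04), Ndufc2 (0.05), Ube2a (0.07) and Tufm (0.07). Ndufc2, a respiratory complex I subunit, had 1262, 1988, 1592 and 1850.5, and Tufm, the mitochondrial translation elongation factor, had 1228, 1821, 1553 and 1867. Such likeness over 4 arrays is a description with few points, and small differences such as those of Hspd1 find close neighbours easily.

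**Figure D5:**
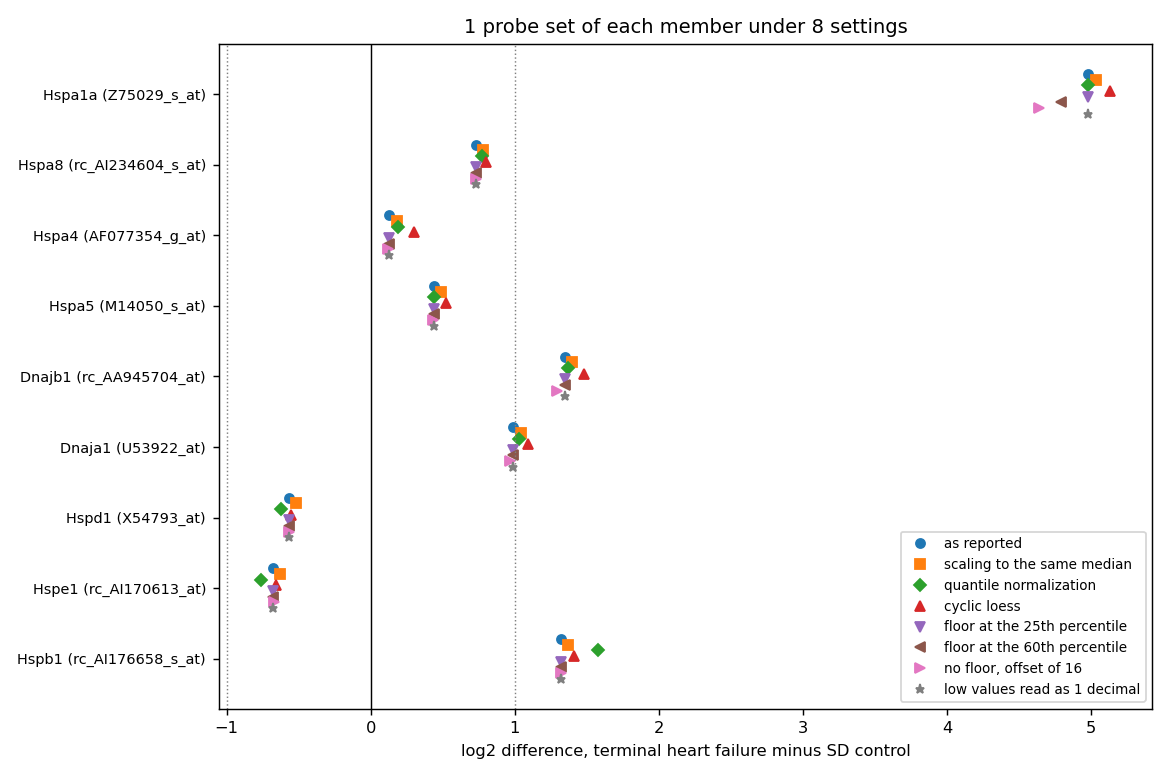
Log2 difference, terminal heart failure minus SD control, of the representative probe set of each of the 9 genes under the main processing and 7 alternatives. Hspa1a on Z75029_s_at stays between 4.64 and 5.13, and Hspd1 on X54793_at between -0.62 and -0.52.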

How the data were processed

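The authors deposited 1 linear intensity per probe set and array, for 8799 probe sets including 59 controls, and the deposited arrays already had trimmed mean intensities of 200.2 to 200.3. The software behind these values and its detection calls are not stated in the labels or headers. Per the file headers, chip lot, run day and fluidics were read from the instrument records.

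Arrays were brought to a common trimmed mean (2% left out at each end). Values below the 40th percentile of the pooled intensities (26.0) took that value as a floor before the log2 step. A probe set entered a comparison when either array exceeded the floor, and counted as higher or lower at 2-fold. Where only 1 array exceeded it, the fold is a lower bound taken against 26.0. With 1 array per group no p-value or error could be computed, and the number of arrays limits the precision. Low deposited values (13625 of 15281 from 1 to under 32) have the form of a day and month, including 11 of 100 values of these genes. An alternative reads them as 1 decimal.

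Gene names came from the platform annotation. Of all probe sets, 7006 had 1 symbol and 308 had several. Genes in lists were represented by the brightest probe set with 1 symbol. The text names all members and their probe sets, and the 5 genes most like Hspa1a and Hspd1. From the lists it names a selection. Not all of the up to 4 genes per list with the largest difference in terminal heart failure against the SD control are named. Of the list genes past 2-fold in any comparison, Hspa13, Dnajb5, Dnaja3 and Timm44 are not described above. The lists, like the members, were chosen with earlier results of these data known. Promoters and positions came from RefSeq tables of GRCr8, which is not the build of the array's design. Scripts were tested on simulated data. Python 3.11.15, numpy 2.4.6, pandas 2.3.3, scipy 1.17.1, statsmodels 0.14.6 and matplotlib 3.10.9 were used. Alternatives were scaling to the same median, quantile normalization, cyclic loess, floors at the 25th and 60th percentile, no floor with an offset of 16, and the reading of low values. For lists the median over all probe sets of the gene, and for Hspa1a each of its other probe sets, was also taken in place of the representative.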

Additional observations from a re-analysis of the deposited data

How the results depend on the processing

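Of the log2 differences of single probe sets or genes recomputed under the 7 alternatives of scaling, floor and low values and, for Hspa1a, with each other probe set as its representative, 1537 moved by less than the spread between probe sets of a gene and 34 by more. Of the 34, 12 came from the change of Hspa1a probe set. No called difference reversed. Counts of members higher in the 3 comparisons with terminal heart failure stayed within 1.5 times under all 7 alternatives. Members lower in terminal heart failure than in the SD control numbered 1 in place of 2 under scaling to the same median, quantile normalization, cyclic loess and no floor. Members lower than in dTGR numbered 1 in place of 2 under scaling to the same median and no floor. Members lower in dTGR than in the SD control numbered 2 in place of 1 under scaling to the same median and 0 with no floor. Members higher in losartan-treated dTGR than in the SD control numbered 2 in place of 1 under quantile normalization, cyclic loess and the 25th percentile floor, and 0 under the 60th percentile floor. Dnaja1 on U53922_at had 0.97 to 1.09 log2 units against the SD control, on both sides of 2-fold, and Hspd1 on rc_AA858640_s_at had -0.28 to 0.10 against dTGR, on both sides of 0.

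Scaling to the same median moved the median of all probe sets from -0.16 to 0.10 in terminal heart failure against dTGR, from 0.05 to -0.17 in dTGR against the SD control and from -0.08 to 0.13 in losartan-treated dTGR against dTGR. The higher share of all calls then moved from 41.2% to 66.4%, from 58.6% to 33.5% and from 35.8% to 57.3%. The counts behind them, higher and lower, moved from 516 and 737 to 804 and 407, from 533 and 376 to 320 and 634, and from 372 and 667 to 574 and 428. In terminal heart failure against dTGR the share was 52.8% under quantile normalization and 58.7% under cyclic loess, with 475 lower under the second, and in losartan-treated dTGR against dTGR it was 46.7% under quantile normalization. Over the 6 comparisons, 179 to 533 higher and 341 to 737 lower became 480 to 1164 and 620 to 1398 with the floor at the 25th percentile, and 60 to 310 and 136 to 247 at the 60th. Under the same 7 alternatives and with the median over all probe sets of a gene, 611 counts in lists stayed within 1.5 times and 61 did not, while 336 list medians moved by less than the spread. Replicates could not be left out, since each group has 1 array. No paired analysis was possible because each group has 1 array.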

Other observations

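The array carries 906 pairs of probe sets named for the same sequence, distinguished as _at and _g_at, and 3 of these pairs belong to Hspb1, Hspa4 and Hspe1. The Hspb1 pair, rc_AA998683_at and rc_AA998683_g_at, had log2 differences of -1.04 and 2.18 in terminal heart failure against the SD control, a gap of 3.22. That was the largest of the 479 pairs above the floor on both arrays, whose median gap was 0.30. In terminal heart failure against losartan-treated dTGR the same pair had -0.59 and 1.31, a gap that ranked 7 of 472. In losartan-treated dTGR against dTGR it had -0.44 and -0.54, a gap of 0.10. The Hspa4 pair had 0.04 and 1.76 in losartan-treated dTGR against dTGR, a gap that ranked 14 of 457. The Hspe1 pair had -0.68 and -0.62 in terminal heart failure against the SD control, a gap of 0.06. Pairs of opposite sign made up 21.9% of pairs in terminal heart failure against the SD control and 39.7% in losartan-treated dTGR against the SD control.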
